A study of Oryctolagus cuniculus with 34 samples.

Results

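Solute carriers (SLC) are membrane proteins that move amino acids, sugars, hormones, vitamins, metals and ions across the plasma membrane or an organelle membrane. The set described here is the 54 genes whose human-ortholog symbol begins with SLC, leaving out the 6 mitochondrial SLC25A carriers, and whose CPM (the count scaled to the size of the library) passed 1 in at least 1 library. They are 54 of the 12937 genes tested and of the 23669 genes of the table. Symbols were at hand for 3310 of the genes tested, so the set is not the whole SLC family, and carriers without a symbol were not analysed here. Nearest the minimum, before scaling between libraries, were the highest values of SLC16A6, 1.92 CPM, and of SLC5A2, 2.67 CPM. No SLC gene with a symbol fell under the minimum. Of the members 2 are not cell or organelle carriers outside mitochondria: SLC8B1 is known as the sodium and calcium exchanger of mitochondria, and SLC7A6OS is named after its position opposite SLC7A6 and is not known as a transporter.

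RNA was sequenced from the posterior lateral region of the supraspinatus, a rotator cuff muscle, of 17 rabbits. All were skeletally mature female New Zealand White rabbits of about 6 months. In the repair group the left supraspinatus tendon had been cut, left detached for 8 weeks and then repaired, and the muscle was taken at 1 week (4 rabbits), 2 weeks (5), 4 weeks (4) or 8 weeks (4) post-repair. The control group was the right shoulder of the same rabbits, called unoperated in the study's methods, while the labels also name a skin incision as sham. No group had a tenotomy without repair, so cutting and repairing cannot be told apart. The left library of rabbit 3 at 8 weeks was left out, which leaves 3 repair libraries against 4 controls there. Libraries of 1 and 8 weeks share 1 series of sample titles and those of 2 and 4 weeks another, with a median of 19343431 and 10625163 counts.

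Muscle fibres take up amino acids through exchangers that work in pairs and through sodium-driven carriers, and many of these also serve the immune and connective tissue cells of the muscle. Ascorbate, taurine, zinc and phosphate carriers are expressed in most cell types. In bulk tissue a lower or higher level of a transporter can come from a different number of cells of a type or from a different amount of RNA per cell, and these cannot be told apart here.

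The skeletal muscle markers MYH8, TNNT3, ATP2A1, PYGM and MYF6 together reached 5624 to 80340 CPM, with none at 0 in any group. At 1 week their sum was lower on the repaired side in 4 of 4 rabbits. It was 5624 to 47198 CPM (median 29209) against 40087 to 53473 in controls (median 44542). Single markers differed, as 2 of the 5 had a log2FC of repair against control above 0. The 1 marker with an adjusted p under 0.05 by limma-voom was higher after repair (log2FC 2.97, adjusted p = 0.0190). Markers of other cells moved with the repair to different degrees. At 1 week the summed level of 5 fibroblast markers was 4779 to 18134 CPM in repair libraries against 1269 to 1663 in controls. That of 3 adipocyte markers was 451 to 1237 against 233 to 361. The sums of 6 macrophage markers overlapped, at 26.5 to 102 against 17.1 to 34.7. So did those of 3 endothelial markers, at 237 to 323 against 192 to 256. Those of 2 smooth muscle and pericyte markers were 87.3 to 149 against 49.1 to 63. In this order 0 of 5, 2 of 3, 0 of 6, 0 of 3 and 0 of 2 markers had an adjusted p under 0.05. At 2 weeks the repair library of rabbit 59 stood apart. Its log2 CPM correlated with the rest of its group at r = 0.861 across genes, against at least 0.958 for every other library. It held 438 CPM of macrophage markers, against 6.36 to 113 in the other 4 repair libraries and 8.89 to 14.9 in the controls, and 56318 CPM of fibroblast markers, against 583 to 15272 and 695 to 1178. No marker was at 0 throughout a group, and the part of these cells in the results on transporters was not tested.

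At 1 week post-repair 5 of the 54 solute carriers were upregulated and 2 were downregulated against control (adjusted p under 0.05, limma-voom with Benjamini-Hochberg adjustment over all genes). Upregulated were the amino acid exchangers SLC7A7 and SLC7A8, the neutral amino acid carrier SLC43A2, the organic anion carrier SLCO2B1 and the ascorbate carrier SLC23A2, by 0.63 to 1.55 on the log2 scale. Downregulated were SLC24A2, a potassium-dependent sodium and calcium exchanger, and SLC45A3, a member of the proton-associated sugar carriers. At 2 weeks 7 were upregulated and 1 was downregulated. Of those named here, the zinc carriers SLC30A7 and SLC39A6, SLC23A2, the vesicular polyamine carrier SLC18B1, the phosphate carrier SLC20A1 and the sodium-glucose carrier SLC5A2 rose, and the organic anion carrier SLC22A9 fell. No member was called at 4 or 8 weeks.

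The totals called at 1 and 2 weeks are close to the share of all genes. By direction more members were higher (5 and 7) than lower (2 and 1), while all genes called split nearly evenly. The 7 members called at 1 week are 13% of the set, where 13.7% of all genes tested were called, 6.81% higher and 6.88% lower. The 8 at 2 weeks are 14.8%, against 15.9% of all genes, 7.95% higher and 7.92% lower. At 4 weeks 0.124% of all genes were called, 0.0773% higher and 0.0464% lower, and at 8 weeks 0.00773%. Members that were DE, with an absolute log2FC over 1 as well, numbered 5 at 1 week (6.16% of all genes) and 3 at 2 weeks (5.77%), and 0 at 4 and 8 weeks (0.0618% and 0.00773%). An unadjusted p under 0.05 was reached by 24 members at 1 week (33.3% of all genes) and 23 at 2 weeks (35.7%). Beside the counts of 0 at 4 and 8 weeks, 7 and 3 members had an unadjusted p under 0.05 (15.9% and 3.07% of all genes), and edgeR and DESeq2 each called 1 and 0, as did the rabbit as a correlation (1.46% and 0.00773% of all genes). With the rabbit as a block, which compares each left shoulder with the right one of the same animal, 18 members were called at 1 week (14 higher, 4 lower; 26.3% of all genes), 20 at 2 weeks (19 higher, 1 lower; 31.6%), 1 at 4 weeks (2.81%) and 0 at 8 weeks (0.00773%). The block kept all 7 and all 8 of the calls above.

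The direction leaned upward, as it did at 1, 2 and 4 weeks in the smaller lists of other transport proteins given below. The log2FC of repair against control was above 0 in 37, 40, 41 and 33 of the 54 members at 1, 2, 4 and 8 weeks, which is 68.5%, 74.1%, 75.9% and 61.1%, where 53.7%, 54%, 54.1% and 52.3% of all genes lay above 0. The median log2FC of the members was 0.40, 0.56, 0.28 and 0.09, against 0.05, 0.06, 0.05 and 0.01 over all genes. In 27 members the log2FC was above 0 at all 4 times and in 9 it was below 0 at all 4, which is 50% and 16.7%, against 29.3% and 22.5% of all genes. Without the repair library of rabbit 59 the median at 2 weeks was 0.23. Without that of rabbit 4 the median at 8 weeks was -0.0020, with 27 members above 0. Members could only come from the 3310 genes with a symbol, and shares over those genes alone were not computed. The gap to all genes is therefore not shown to be particular to solute carriers.

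**Figure D1:**
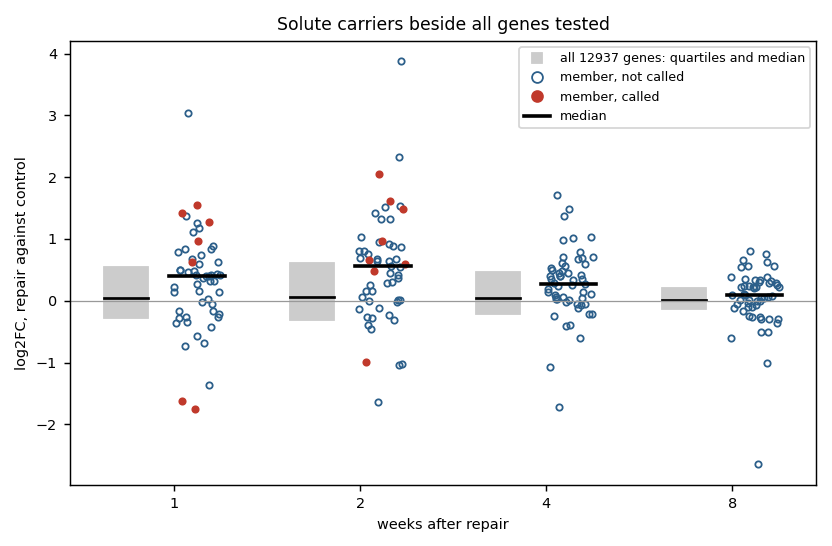
log2FC of repair against control (y axis) at each time post-repair (x axis). Circles are the 54 solute carriers, filled where called at an adjusted p under 0.05, with their median as a thick line, and the grey box gives the quartiles and median of all 12937 genes tested. The median of the members is 0.40, 0.56, 0.28 and 0.09, above that of all genes at each time.

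The 15 carriers of amino acids, peptides and taurine had a median log2FC of 0.83, 0.68, 0.42 and 0.29 at 1, 2, 4 and 8 weeks, with 11, 11, 11 and 10 of 15 above 0. The test called 3 of them at 1 week, all upregulated, and 0 at the other times, which is 20% of the group at 1 week beside 13.7% of all genes and 0% at 2 weeks beside 15.9%. The block called 6, 7, 1 and 0, or 40% and 46.7% at the first times beside 26.3% and 31.6% of all genes. The rabbit correlation called 4 and 2 of the 15 at those times, where it called 22.4% and 25.2% of all genes. SLC7A8 (ENSOCUG00000001685) and SLC7A7 (ENSOCUG00000000724) are light chains that exchange neutral, and neutral for basic, amino acids, and each works with the heavy chain SLC3A2.

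At 1 week SLC7A8 lay at 9.05, 7.15, 6.58 and 7.50 CPM in the controls of rabbits 5, 6, 7 and 8, and at 29.5, 5.21, 21.7 and 32 CPM in their repaired shoulders. It was high in 3 of the 4 repaired muscles, and rabbit 6 went the other way, so the groups overlapped. The means were 22.1 ± 12.1 against 7.57 ± 1.06 CPM (SD, n = 4 each), a log2FC of 1.27 (SE 0.39, adjusted p = 0.0326). The repair library of rabbit 6 also had the lowest summed level of skeletal muscle markers, 5624 CPM, and without it the adjusted p was 0.000181. SLC7A8 was no longer called when any other of the 8 libraries of the week was left out, with an adjusted p of at most 0.102.

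SLC7A7, at under 4 CPM throughout the week, rose from 0.855, 0.998, 0.935 and 0.714 CPM in the controls of rabbits 5 to 8 to 2.79, 1.82, 3.64 and 2.66 CPM after repair. All 4 repaired muscles lay above all 4 controls, with a log2FC of 1.55 (SE 0.49, adjusted p = 0.0372). The call was lost without any of the 4 controls or the repair library of rabbit 7 (adjusted p up to 0.104). Their heavy chain SLC3A2 gave 55.3 ± 15.8 against 47.5 ± 15.2 CPM, a log2FC of 0.23 with a 95% interval of -0.32 to 0.78, so a change of either sign is within its error.

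SLC43A2 (ENSOCUG00000000076) lets neutral amino acids pass without an exchange partner. At 1 week its values were 80.8, 79.9, 67.8 and 120 CPM in the controls of rabbits 5 to 8 and 196, 164, 151 and 161 CPM after repair. No repaired muscle fell among the controls, and the mean rose from 87.1 ± 22.6 to 168 ± 19.6 CPM (log2FC 0.97, SE 0.30, adjusted p = 0.0344). Of the 8 libraries, only that of the control of rabbit 8 could be left out with the call kept (adjusted p otherwise up to 0.102). At 2 weeks it was higher in 1 of 5 rabbits, with 73.8 ± 13.9 CPM after repair against 88.3 ± 13.2 in controls and a log2FC of -0.26 (95% interval -0.75 to 0.23). The repair library of rabbit 59, highest for many members, gave 73.2 CPM of SLC43A2, against 98.8 in its control.

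At 2 weeks no amino acid carrier was called, and the largest log2FC belonged to the peptide carrier SLC15A2 and the glutamine carrier SLC38A5. SLC15A2 lay between 0 and 0.291 CPM in the 5 controls, and at 14.9, 0.606, 0.389, 6.71 and 0.166 CPM in the repaired muscles of rabbits 59, 60, 61, 62 and 64. Each rabbit was higher on the repaired side, and the gap was wide in rabbits 59 and 62 and narrow in rabbits 60, 61 and 64 (log2FC 3.88, SE 1.55, adjusted p = 0.0767). Rabbits 59 and 62, the highest for SLC15A2, were also those with 438 and 113 CPM of macrophage markers, whose part in the result was not tested. With the block the adjusted p was 0.00369, and with the rabbit correlation 0.0525. SLC38A5 gave 8.44 CPM in the repaired muscle of rabbit 59 and 0.404 to 1.3 CPM in the other 4, against 0 to 1.26 in controls (log2FC 2.32, adjusted p = 0.0584, block 0.0448). The lysosomal peptide and histidine carrier SLC15A3 had a log2FC of 1.11 and 1.33 at 1 and 2 weeks, with an adjusted p of 0.0437 and 0.0137 with the block and of 0.0503 and 0.0624 with the rabbit correlation. At 1 week edgeR and DESeq2 did not call it either, and at 2 weeks both did.

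SLC6A6 (ENSOCUG00000001144), the sodium-driven taurine carrier, was chosen for description after its values were seen. At 1 week it gave 10.3, 12, 13.7 and 11.3 CPM in the controls of rabbits 5 to 8 and 14.1, 33.3, 29.9 and 14.1 CPM after repair. At 2 weeks the controls of rabbits 59, 60, 61, 62 and 64 lay at 13.7, 8.80, 9.90, 7.60 and 13.5 CPM and their repaired muscles at 33.1, 16.1, 14.2, 16.5 and 22.7 CPM. At 4 weeks rabbits 63, 66, 67 and 68 had 9.61, 6.73, 10.1 and 13.3 CPM on the control side and 18.6, 31.5, 21.2 and 33 CPM on the repaired side. The groups did not overlap at 1, 2 or 4 weeks. At 8 weeks rabbits 2 and 4 were higher after repair, at 36.6 and 43.7 CPM against 19.6 and 18.3, and rabbit 1 was lower, at 14 against 16.7.

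The log2FC of SLC6A6 was 0.83, 0.92, 1.38 and 0.76 at 1, 2, 4 and 8 weeks, and the adjusted p was 0.0732, 0.0517, 0.0875 and 0.999, so this test did not call it at any time. With the block it was 0.0136, 0.0107, 0.0140 and 0.883, and SLC6A6 was the 1 member called at 4 weeks. It was also the member that edgeR, DESeq2 and the rabbit correlation called there. At 4 weeks 3 adipocyte markers summed to 555 to 916 CPM after repair against 148 to 321 in controls, without overlap (1 of 3 called, 3 with the block), and 5 fibroblast markers to a median of 2360 against 749 CPM, with overlap (0 of 5 called). The part of these cells in the values of SLC6A6 was not tested. Across the study it was higher after repair in 15 of 16 rabbits.

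The sodium-driven neutral carrier SLC38A2 was lower after repair in 14 of 16 rabbits and not called. Its log2FC was -0.21, -0.01, -0.22 and -0.30, and at 8 weeks 150 ± 13.7 CPM after repair (n = 3) lay under 185 ± 4.07 in controls (n = 4) without overlap. At 4 weeks the largest log2FC of the group were those of SLC15A2 (1.72, SE 1.96) and SLC38A6 (1.48, adjusted p = 0.238).

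**Figure D2:**
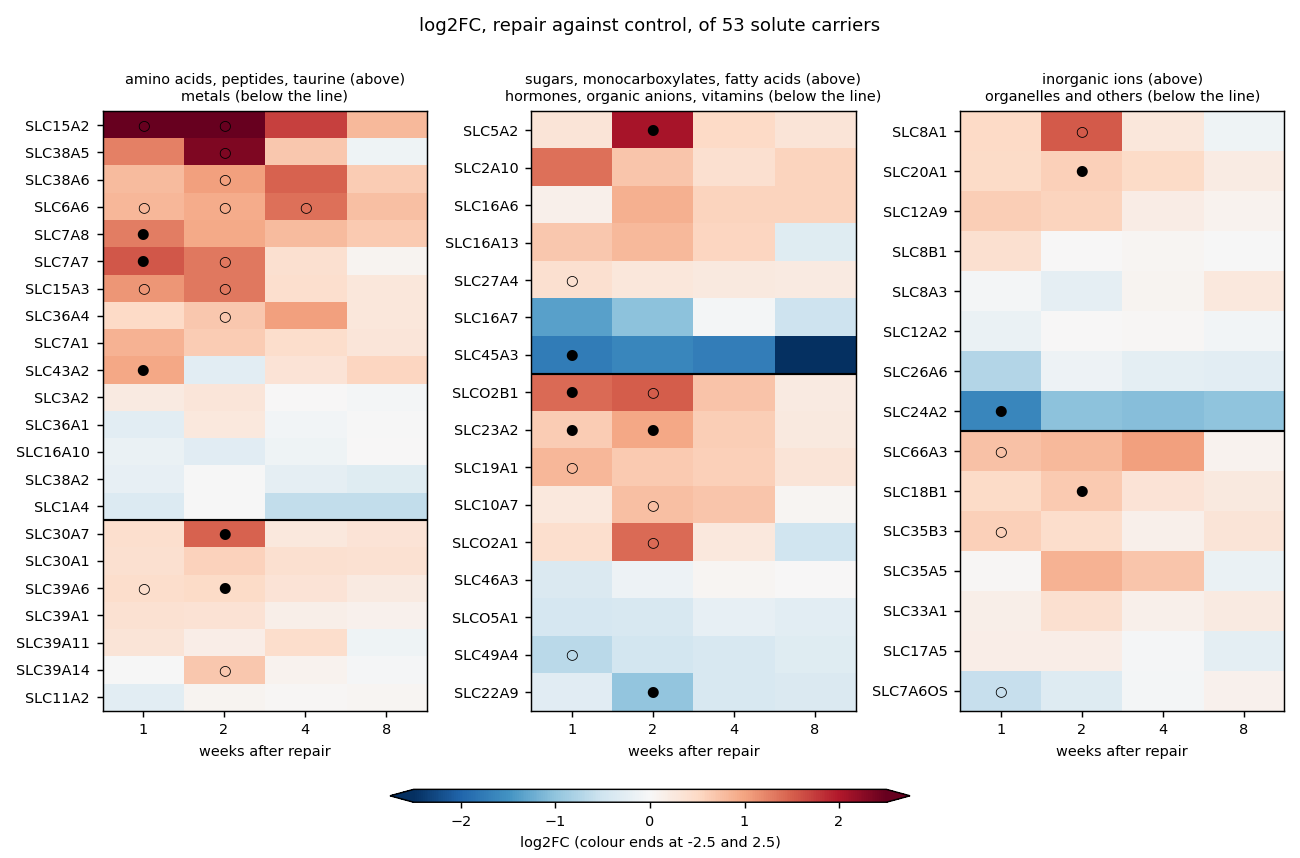
log2FC of repair against control (colour) for 53 of the solute carriers (rows, by substrate group) at 1, 2, 4 and 8 weeks post-repair (columns). Filled dots mark calls at an adjusted p under 0.05 and open dots those called only with the rabbit as a block. Most cells are red and are paler at 8 weeks, though no member was shown to differ between times. Blue at all 4 times are 9 members, SLC45A3 and SLC24A2 among them.

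The 10 carriers of hormones, prostaglandins, organic anions and vitamins had 2 calls at 1 week and 3 at 2 weeks (5 and 6 with the block). These are 20% and 30% of the group, or 50% and 60% with the block, beside 13.7% and 15.9% of all genes, or 26.3% and 31.6% with the block. SLC23A2 (ENSOCUG00000006637), which takes up ascorbate together with sodium, was the 1 member called at both times. At 1 week it lay at 5.77, 8.70, 6.62 and 8.07 CPM in the controls of rabbits 5 to 8 and at 8.88, 14.9, 10.9 and 10.5 CPM after repair. At 2 weeks the controls of rabbits 59, 60, 61, 62 and 64 gave 6.96, 5.80, 6.99, 5.55 and 4.36 CPM and the repaired muscles 22.1, 9.29, 8.85, 11.8 and 8.37 CPM. Repaired and control muscles did not overlap at either time, and every rabbit was higher on the repaired side.

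The mean of SLC23A2 rose from 7.29 ± 1.34 to 11.3 ± 2.54 CPM at 1 week (log2FC 0.63, SE 0.22, adjusted p = 0.0490) and from 5.93 ± 1.10 to 12.1 ± 5.75 CPM at 2 weeks (log2FC 0.97, SE 0.24, adjusted p = 0.0146). Leaving out the repair library of rabbit 59 gave a log2FC of 0.70 at 2 weeks and an adjusted p of 0.0512, and no other library changed that call. The call at 1 week was lost without 7 of the 8 libraries, that of the repair library of rabbit 5 being the exception, with an adjusted p of up to 0.150. At 4 weeks SLC23A2 was again higher without overlap, 9.07 ± 1.90 against 5.86 ± 0.707 CPM (log2FC 0.62, adjusted p = 0.286), and at 8 weeks the log2FC was 0.24 (95% interval -0.24 to 0.73). It was higher after repair in 15 of 16 rabbits.

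SLCO2B1 (ENSOCUG00000014225), a carrier of steroid sulfates and other organic anions, gave 1.78, 1.94, 1.16 and 1.43 CPM in the controls of rabbits 5 to 8 at 1 week and 4.59, 2.95, 6.04 and 3.34 CPM after repair. Every repaired muscle lay above every control (4.23 ± 1.39 against 1.58 ± 0.351 CPM, log2FC 1.42, SE 0.45, adjusted p = 0.0373). Without any of the controls or the repair library of rabbit 5 or 7 it was not called (adjusted p up to 0.141). At 2 weeks its log2FC was 1.52 (adjusted p = 0.0629, block 0.0148), with 13.8 CPM in the repaired muscle of rabbit 59 and 0.911 to 3.56 CPM in the other 4.

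SLC22A9 (ENSOCUG00000025543), an organic anion carrier best known from liver, fell at 2 weeks. The controls lay at 12.2, 13.8, 5.92, 12.8 and 7.95 CPM and the repaired muscles at 1.90, 8.28, 4.76, 5.82 and 9.11 CPM for rabbits 59, 60, 61, 62 and 64. It was lower in 4 of 5 rabbits, the groups overlapped, and rabbit 64 went the other way (log2FC -1.0, SE 0.31, adjusted p = 0.0333). Without the repair library of rabbit 59 the log2FC was -0.56 and the adjusted p 0.196, and without its control, either library of rabbit 62 or the control of rabbit 60 it was likewise not called.

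Among members of this group without a call, the prostaglandin carrier SLCO2A1 had a log2FC of 1.42 at 2 weeks (adjusted p = 0.0758, block 0.00876) and the folate carrier SLC19A1 one of 0.84 at 1 week (adjusted p = 0.0664, block 0.0203). SLC49A4, a lysosomal membrane protein named here after its values were seen, was lower after repair in 15 of 16 rabbits. At 1 week its controls lay at 80.3, 80.7, 76.6 and 81.3 CPM and its repaired muscles at 55.2, 41, 44.4 and 60.9 CPM for rabbits 5 to 8. Its log2FC was -0.68, -0.45, -0.40 and -0.30 at 1, 2, 4 and 8 weeks, with an adjusted p of 0.0634 at 1 week, or 0.0256 with the block. Later log2FC of the group included 0.71 for SLCO2B1 at 4 weeks and -0.50 for SLCO2A1 at 8 weeks, both with an adjusted p of 0.625 or more.

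**Figure D3:**
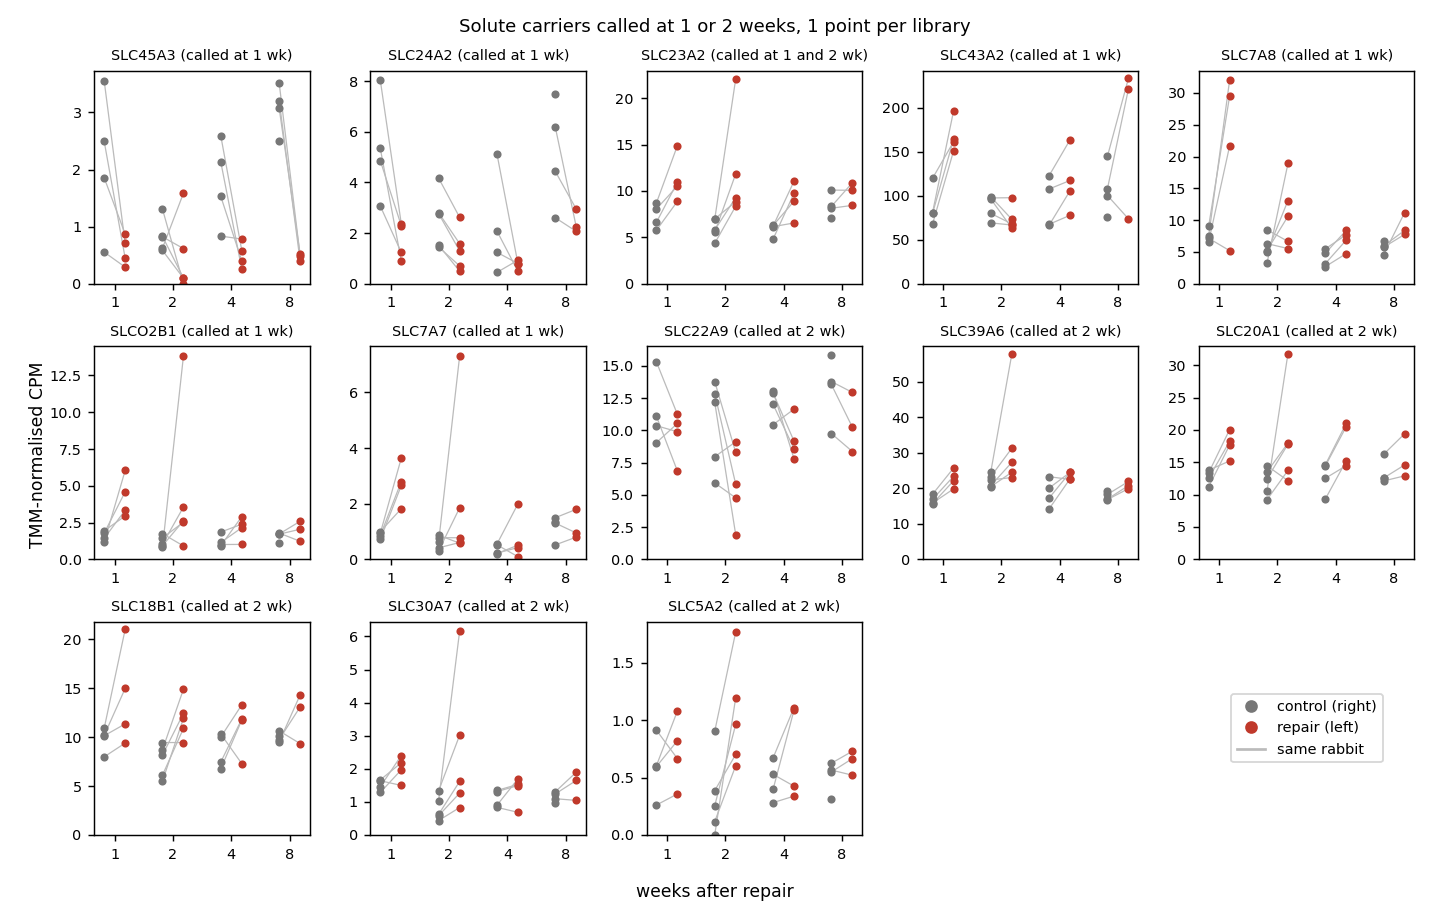
Normalised CPM (y axis, from 0, a scale of its own in each panel) of 13 solute carriers called at 1 or 2 weeks, by weeks post-repair (x axis). Each point is 1 library, grey for the right control and red for the left repaired shoulder, and lines join the shoulders of 1 rabbit. In most panels of 2 weeks the highest red point is rabbit 59, for example 22.1 CPM of SLC23A2 and 57.8 CPM of SLC39A6.

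The 8 carriers of inorganic ions had 1 call at 1 week and 1 at 2 weeks, each 12.5% of the group beside 13.7% and 15.9% of all genes. SLC24A2 (ENSOCUG00000002462) exchanges sodium against calcium and potassium and is best known from neurons. At 1 week it lay at 5.34, 8.04, 4.86 and 3.07 CPM in the controls of rabbits 5 to 8 and at 0.898, 2.37, 2.30 and 1.24 CPM after repair. The repaired muscles were all under the lowest control, and the mean fell from 5.33 ± 2.05 to 1.70 ± 0.743 CPM (log2FC -1.63, SE 0.40, adjusted p = 0.0110). It was called without each of the 8 libraries of the week in turn, with an adjusted p between 0.00989 and 0.0372.

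At 2 weeks SLC24A2 was lower in 5 of 5 rabbits, with overlap between the groups (1.34 ± 0.840 against 2.55 ± 1.12 CPM, log2FC -1.02, adjusted p = 0.178). At 4 weeks it was lower in 3 of 4 rabbits (log2FC -1.07, 95% interval -2.56 to 0.42), where the control of rabbit 63 had 5.13 CPM and that of rabbit 66 had 0.449. At 8 weeks it was lower in 3 of 3, at 2.07, 2.95 and 2.25 CPM for rabbits 1, 2 and 4 against 2.61, 4.44 and 6.20 in their controls (log2FC -1.0, adjusted p = 0.999). In all, 15 of 16 rabbits had less SLC24A2 on the repaired side.

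SLC20A1 (ENSOCUG00000001772), a sodium-driven phosphate carrier, was called at 2 weeks. Its controls lay at 10.5, 9.21, 14.5, 12.4 and 13.5 CPM and the repaired muscles at 31.8, 13.7, 12.2, 17.8 and 18 CPM for rabbits 59, 60, 61, 62 and 64. It was higher in 4 of 5 rabbits, rabbit 61 being the exception (log2FC 0.60, SE 0.20, adjusted p = 0.0454). The log2FC without the repair library of rabbit 59 was 0.37 and the adjusted p 0.201, and the call was also lost without any control or the repair library of rabbit 62. At 1 week it was higher without overlap, 17.8 ± 2.00 against 12.7 ± 1.14 CPM (log2FC 0.48, adjusted p = 0.0960, block 0.0568). Over all weeks 15 of 16 rabbits were higher.

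The sodium and calcium exchanger SLC8A1 had a log2FC of 1.53 at 2 weeks (adjusted p = 0.0526, block 0.0211), with 7.04, 2.33 and 3.77 CPM in the repaired muscles of rabbits 59, 61 and 62 and values within the range of the controls in rabbits 60 and 64. Its relative SLC8A3 gave 46.6 ± 6.65 against 48.1 ± 5.83 CPM at 1 week, a log2FC of -0.05 with a 95% interval of -0.53 to 0.43. The sodium, potassium and chloride carrier SLC12A2 lay within 0.16 of no change on the log2 scale at all 4 times, with an interval of -0.46 to 0.49 at 2 weeks. The anion exchanger SLC26A6 had a log2FC of -0.26 at 8 weeks (adjusted p = 0.999).

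The 7 carriers of iron, zinc and manganese had log2FC above 0 in 5, 7, 7 and 5 members, with 2 calls at 2 weeks (28.6% of the group, 15.9% of all genes) and none at the other times. SLC30A7 (ENSOCUG00000010517), which moves zinc into the Golgi, gave 1.04, 0.621, 0.583, 1.34 and 0.436 CPM in the controls of rabbits 59, 60, 61, 62 and 64 at 2 weeks and 6.16, 1.62, 1.26, 3.01 and 0.828 CPM after repair. Each rabbit was higher on the repaired side, though the groups overlapped (log2FC 1.48, SE 0.45, adjusted p = 0.0306). The repair library of rabbit 59 decided the call, which was lost without it (log2FC 1.01, adjusted p = 0.117), and the repair library of rabbit 62 and the controls of rabbits 60, 61 and 64 were needed too.

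SLC39A6 (ENSOCUG00000000692), which brings zinc into the cytosol, was called at 2 weeks with 24.7, 22.4, 20.8, 23.3 and 20.5 CPM in the controls and 57.8, 23.0, 27.3, 31.3 and 24.5 CPM after repair. Rabbit 60 differed by less than 1 CPM between its shoulders, and rabbit 59 was far above the rest (log2FC 0.48, SE 0.16, adjusted p = 0.0467). Without the repair library of rabbit 59 the log2FC was 0.25 and the adjusted p 0.186, and any control or the repair library of rabbit 62 also ended the call when left out. At 1 week SLC39A6 had the largest log2FC of the metal carriers, 0.44, with 22.1, 23.4, 25.7 and 19.8 CPM after repair above 15.7, 16.9, 18.3 and 15.9 in the controls (adjusted p = 0.0900, block 0.0399). It was higher without overlap again at 8 weeks (20.9 ± 1.01 against 17.9 ± 1.18 CPM, log2FC 0.23, adjusted p = 0.999) and in 15 of 16 rabbits.

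SLC39A14, a carrier of zinc, iron and manganese, had a log2FC of 0.68 at 2 weeks (adjusted p = 0.0578, block 0.0246) and of -0.02 at 1 week. The iron carrier SLC11A2 lay near no change after the first week, with a 95% interval of -0.27 to 0.40 at 2 weeks. At 4 weeks the largest values were 0.44 for SLC39A11 and 0.41 for SLC30A1, a zinc exporter, and at 8 weeks 0.39 for SLC30A1 and 0.35 for SLC30A7, all of them within their error.

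The 7 carriers of sugars, monocarboxylates and fatty acids had 1 call at 1 week and 1 at 2 weeks, both in genes under 4 CPM. Each is 14.3% of the group, beside 13.7% and 15.9% of all genes. SLC45A3 (ENSOCUG00000025013) lay at 2.49, 0.554, 3.55 and 1.86 CPM in the controls of rabbits 5 to 8 at 1 week and at 0.449, 0.291, 0.706 and 0.870 CPM after repair. Every rabbit was lower on the repaired side, and the groups overlapped through the low control of rabbit 6 (log2FC -1.76, SE 0.54, adjusted p = 0.0334). Without 6 of the 8 libraries in turn it was not called (adjusted p up to 0.154), whereas without the control of rabbit 6 the adjusted p was 0.00491.

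The later values of SLC45A3 pointed the same way. At 4 weeks the controls of rabbits 63, 66, 67 and 68 had 1.53, 2.13, 2.59 and 0.835 CPM and the repaired muscles 0.398, 0.254, 0.582 and 0.783 CPM (log2FC -1.72, adjusted p = 0.238). At 8 weeks the repaired muscles of rabbits 1, 2 and 4 had 0.517, 0.491 and 0.40 CPM, against 3.08, 3.52, 2.5 and 3.21 CPM in the controls of rabbits 1 to 4. This was the largest log2FC of any member at 8 weeks, -2.65 (SE 0.66, 95% interval -3.99 to -1.3), without overlap and with an adjusted p of 0.959. At 2 weeks 4 of 5 rabbits were lower, with no count in the repaired muscle of rabbit 64, and rabbit 59 was higher at 1.59 against 0.623 CPM (log2FC -1.64, adjusted p = 0.123). SLC45A3 was thus lower in 15 of 16 rabbits, at levels between 0 and 3.55 CPM.

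SLC5A2 (ENSOCUG00000021091), which takes up glucose with sodium and is best known from kidney, was called at 2 weeks at very low levels. The controls had 0.904, 0.256, 0.117, 0 and 0.387 CPM and the repaired muscles 1.77, 0.964, 0.604, 1.2 and 0.702 CPM for rabbits 59, 60, 61, 62 and 64. Each rabbit was higher after repair, and the groups overlapped (log2FC 2.06, SE 0.55, adjusted p = 0.0186). The call was lost without the repair library of rabbit 59 (adjusted p = 0.0744) or the control of rabbit 62, and was kept without each of the other 8.

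Of the members of this group without a call, the monocarboxylate carrier SLC16A7 was lower in 4 of 4 rabbits at 1 week (15.7 ± 9.90 against 34 ± 8.74 CPM, log2FC -1.36, adjusted p = 0.108) and in 4 of 5 at 2 weeks (log2FC -1.03, adjusted p = 0.161). At 4 weeks it differed by sign between rabbits, with 33.7 CPM after repair against 6.73 in rabbit 66 and 7.17 against 31.3 in rabbit 63. The glucose carrier SLC2A10 was higher without overlap at 1 week (1.31 ± 0.682 against 0.456 ± 0.0841 CPM, log2FC 1.38, adjusted p = 0.177). The fatty acid carrier SLC27A4 was called at 1 week with the block (log2FC 0.40, block adjusted p = 0.0485) and not with the rabbit correlation (0.0948), edgeR or DESeq2. SLC16A6 had a log2FC of 0.56 at both 4 and 8 weeks.

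The 7 members of organelle membranes and other roles had 1 call, SLC18B1 (ENSOCUG00000001601) at 2 weeks, 14.3% of the group beside 15.9% of all genes. This carrier loads polyamines into vesicles. Its controls lay at 5.51, 8.18, 6.12, 9.45 and 8.71 CPM and its repaired muscles at 11.9, 12.4, 10.9, 9.45 and 14.9 CPM for rabbits 59, 60, 61, 62 and 64. It was higher in 4 of 5 rabbits, rabbit 62 showing no gap to 3 digits, and the groups overlapped at that value (log2FC 0.66, SE 0.23, adjusted p = 0.0465). With the repair library of rabbit 59 left out its log2FC was 0.65, almost as with it, while the adjusted p was 0.112. In all, 8 of the 10 libraries of the week ended the call when left out.

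SLC66A3 was the largest of these at 1 week without a call, with 3.24, 3.82, 3.78 and 4.03 CPM after repair above 1.64, 2.22, 2.51 and 2.43 in the controls (log2FC 0.74, adjusted p = 0.0688, block 0.0473), and at 4 weeks it reached 1.03 (adjusted p = 0.206). SLC35B3, which moves the sulfate donor into the Golgi, followed at 1 week with 0.59 (block adjusted p = 0.0274, rabbit correlation 0.0645), and SLC35A5 at 4 weeks with 0.68 (adjusted p = 0.578). SLC7A6OS was lower at 1 week, at 5.64, 10.8, 6.53 and 7.05 CPM against 11.9, 11.4, 11.3 and 9.0 in the controls of rabbits 5 to 8 (log2FC -0.57, adjusted p = 0.0502, block 0.0306). At 8 weeks the largest values of the group were 0.33 for SLC35B3 and -0.25 for SLC17A5, the lysosomal sialic acid carrier.

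Separation of repaired from control muscles is reached more easily in smaller groups, and these held 4, 5, 4 and 3 repair libraries. Counts of it are therefore not a ranking of the times. The largest count was at 1 week. There 17 members lay higher and 2 lower without overlap, which is 35.2% of the set, where 29.4% of all genes did not overlap, 16.1% higher and 13.3% lower. At 2 weeks this held for 2 members, SLC23A2 and SLC6A6 (3.70%, all genes 7.84%), at 4 weeks for 5 (9.26%, all genes 9.11%) and at 8 weeks for 7 (13%, all genes 7.56%). Counted over the 16 rabbits with both shoulders, 12 members were higher after repair in at least 14 of them (22.2%, all genes 13%) and 4 were lower in at least 14 (7.41%, all genes 11.2%). The 4 lower ones were SLC24A2, SLC45A3, SLC49A4 and SLC38A2.

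At 2 weeks the repair library of rabbit 59 had the highest value of the 5 repair libraries for 37 of the 54 members, or 68.5%, where it was the highest for 39.9% of all genes. Without it none of the 8 members was called, and 2.62% of all genes were. Leaving out a repair library of rabbit 60, 61 or 64 instead gave 20, 12 and 18 called members, where 25.7%, 21.3% and 26.7% of all genes were called. That of rabbit 62 gave 2 (5.9% of all genes), and leaving out a control gave 2 or 3 (6.9% to 11.1%). At 1 week leaving out a control library gave 1 or 2 called members (4.58% to 8.76% of all genes) and leaving out a repair library gave 5, 6, 1 and 5 for rabbits 5, 6, 7 and 8 (13.6%, 6.8%, 5.28% and 12.7% of all genes).

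Under other ways of fitting, the share of all genes called moved along with the members. At 1 week edgeR called 11.1% of the members and 12.1% of all genes, DESeq2 16.7% and 17.3%, the sample quality weights 46.3% and 32.3%, and a fit of that time point alone 25.9% and 24.4%. At 2 weeks edgeR called 42.6% of the members and 28.7% of all genes, DESeq2 46.3% and 31.2%, the quality weights 3.7% and 6.31%, and the time point alone 0% and 0.0396%. At 4 weeks, where edgeR and DESeq2 called 1 member each and the quality weights 4, they called 2.52%, 5.44% and 7.98% of all genes.

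**Figure D4:**
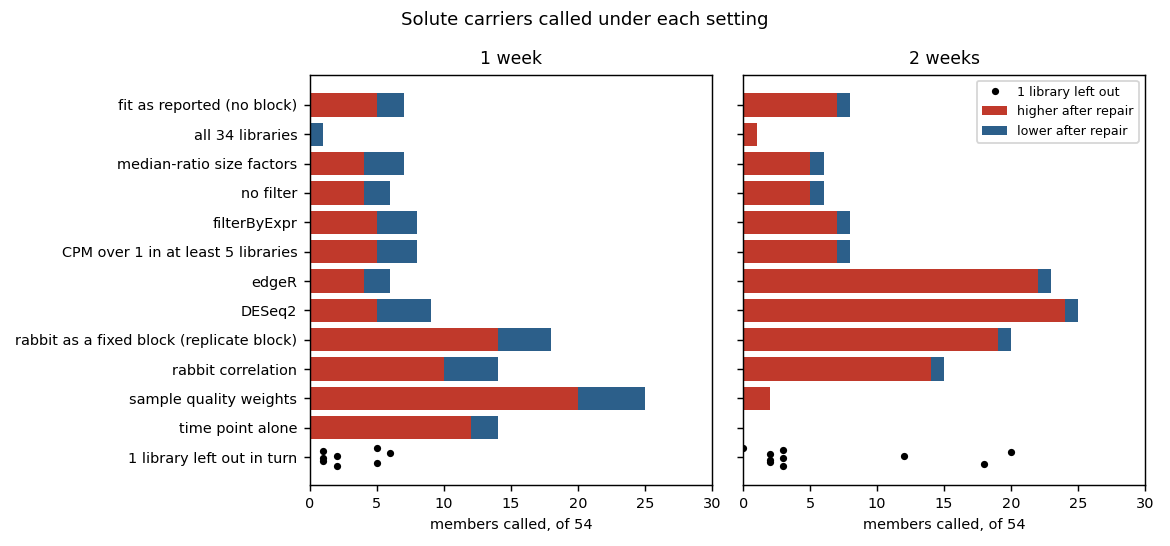
Number of the 54 solute carriers called (x axis) at 1 week (left) and 2 weeks (right) post-repair under each way of fitting (rows), with red for higher and blue for lower after repair. The black points give the count with 1 library left out in turn. The count runs from 1 to 25 at 1 week and from 0 to 25 at 2 weeks.

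Whether the repair effect differed between times was tested within each series of sample titles. No member differed between 1 and 8 weeks (lowest adjusted p = 0.827) or between 2 and 4 weeks (lowest adjusted p = 1.00), and no gene of the table did. An unadjusted p under 0.05 was found for 1 member, SLC7A6OS, in 1 against 8 weeks (5.28% of all genes) and for 0 in 2 against 4 weeks (2.77%), while edgeR gave 2 and 3 (5.44% and 4.75% of all genes) and DESeq2 gave 3 and 5 (6.15% and 5.4%), with none called by either. The sample quality weights gave 8 members for 1 against 8 weeks, 14.8% beside 18.2% of all genes (lowest adjusted p = 0.0613), and 1 for 2 against 4 weeks. The calls of 1 and 2 weeks are therefore not shown to be absent later. For SLC24A2 the effect at 1 week minus that at 8 weeks was -0.63 on the log2 scale, with a 95% interval of -1.84 to 0.58, and for SLC23A2 it was 0.39 (-0.27 to 1.05). For SLC30A7 the effect at 2 weeks minus that at 4 weeks was 1.23 (-0.18 to 2.63), and for SLC6A6 it was -0.45 (-1.46 to 0.56).

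Other transport proteins with a symbol were counted beside the carriers. At 1, 2, 4 and 8 weeks 62.5%, 75%, 87.5% and 25% of 8 ATP-binding cassette proteins had a log2FC above 0. This share was 88.9%, 77.8%, 88.9% and 77.8% for 9 P-type and vacuolar ATPases. For 8 major facilitator proteins and aquaporins it was 75%, 75%, 87.5% and 62.5%. Of 8 ATP-binding cassette proteins 1 was called at 1 week, the organic anion pump ABCC3 (log2FC 2.17, adjusted p = 0.0334), and 0 at 2 weeks. Of 9 P-type and vacuolar ATPases 1 was called at 1 week, the phospholipid flippase ATP8B2 (1.26), and 3 at 2 weeks, ATP8B2 (1.72), ATP8B1 (1.44) and the calcium pump ATP2B4 (0.82). Of 8 major facilitator proteins and aquaporins the lipid carrier MFSD2A rose at 1 week (2.56, adjusted p = 0.0163), MFSD4B fell (-0.89, adjusted p = 0.00950), and MFSD14A rose at 2 weeks (0.63). The share called was 12.5%, 11.1% and 25% of these lists at 1 week and 0%, 33.3% and 12.5% at 2 weeks, beside 13.7% and 15.9% of all genes, and none had a call at 4 or 8 weeks.

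Genes that use or sense amino acids were mostly below 0. Of 9 cytosolic aminoacyl-tRNA synthetases and lysosomal amino acid sensing genes, 0 had a log2FC above 0 at 1 week and 1 at 2 weeks, with medians of -0.28 and -0.30. Called were the methionyl-tRNA synthetase MARS1 at 1 week (-0.39, adjusted p = 0.0373) and the Ragulator subunits LAMTOR1 and LAMTOR3 at 2 weeks (-0.43 and -0.33), all 3 lower after repair. That is 11.1% and 22.2% of the list, where 13.7% and 15.9% of all genes were called.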

How the data were processed

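The deposited table holds an expected count for each gene and library: per the labels and the study's methods, the authors aligned reads with STAR 2.5.1a to the rabbit genome OryCun 2.0 with Ensembl annotation 91 and counted them with RSEM 1.3.0. They are not scaled, and 8.35% of the values are not whole. No gene positions, gene lengths or sequences of that build were used here, so levels were not compared between genes per length and no sequence is shown. Reads shared between related carriers were split by RSEM's estimate.

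Genes with CPM over 1 in at least 1 of 33 libraries (12937 of 23669) were scaled by TMM (edgeR 4.0.16) and fitted with limma-voom (limma 3.58.1, R 4.3.3), 1 coefficient for each of 8 groups, with Benjamini-Hochberg adjustment over all genes, as in the study's methods. Calls needed an adjusted p under 0.05, and DE genes an absolute log2FC over 1 besides. The numbers of genes tested and of DE genes differ from those the study reported, and the reason was not tested. Library totals ran from 9220035 to 28395188 (median 12127768). Counts were rounded for edgeR quasi-likelihood and DESeq2 1.42.0. CPM printed are TMM-normalised unless stated to be before scaling, and intervals are 95%. Left and right libraries come from the same rabbit, which pairs them. The residuals of both shoulders of a rabbit correlated at -0.00462 to 0.474 (median 0.277, 16 pairs), and the rabbit correlation was 0.174. The fitting script was tested on simulated data. Replicates are rabbits, and no library repeats another (highest r 0.990).

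Symbols came from the study's supplementary gene tables, whose values of comparisons were not used. The members and lists were chosen with earlier results of these data known. Among them 1 member is counted in every total but is not reported here by name. Otherwise every member called was to be named, per-library values given for at most 8 called members a time whose mean log2 CPM reached 0, and up to 2 members of largest log2FC named in a substrate group without a call. Per-library values of SLC7A7, SLC45A3 and SLC5A2, whose mean log2 CPM was under 0, and those of SLC6A6, SLC49A4, SLC38A2, SLC7A6OS and other uncalled members given beside these were picked after their values were seen. Alternatives were all 34 libraries, median-ratio size factors, 3 other filters, edgeR, DESeq2, the rabbit as a block or as a correlation, sample quality weights, each time alone, and each library left out. Figures were drawn with matplotlib 3.10.9.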

Additional observations from a re-analysis of the deposited data

Results flagged for a closer look

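In the repair group at 2 weeks, rabbit 59 lay apart from the other 4 rabbits for 2 of the members called there, by the ratio of the gap to the range of the group. SLC23A2 reached 22.1 CPM in it, with 8.37 to 11.8 CPM in the others, and SLC39A6 reached 57.8 CPM, with 23.0 to 31.3 CPM in the others. Chance marks about 1 in 20 of such groups, and 30 were looked at. The same library held 56318 CPM of fibroblast markers and 438 CPM of macrophage markers, and their part in these values was not tested.

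The left library of rabbit 3 at 8 weeks, which entered no comparison, held 8756033 counts and had a correlation of r = 0.704 with the other 3 repair libraries, which reached 0.973 or more. By CPM before scaling between libraries, 13 of the 54 members lay in it above every control library of 8 weeks. The counts for rabbits 1, 2 and 4 were 15, 18 and 33, and 6 members had no count in the library of rabbit 3. The repair library of rabbit 4 had a TMM factor of 1.10, against 0.868 to 0.993 in the controls. Scaling would thus lower its values relative to theirs.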

How the results depend on the processing

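At 1 week the 7 calls became 1 with all 34 libraries, 18 with the replicate block, 14 with the rabbit correlation, 25 with sample quality weights and 14 with the time point alone, and 6 to 9 with edgeR, DESeq2, median-ratio size factors or another filter. Median-ratio size factors gave 4 higher and 3 lower in place of 5 and 2. Of all genes, all 34 libraries called 2.25% at 1 week and the rabbit correlation 22.4%. Median-ratio size factors and the other filters called 9% to 15.2% of all genes there. At 2 weeks the 8 calls became 1 with all 34 libraries, 20 with the block, 15 with the correlation, 2 with quality weights, 23 with edgeR, 25 with DESeq2 and 0 with the time point alone, and 6 to 8 under the other settings. Of all genes, all 34 libraries called 3.16% at 2 weeks and the correlation 25.2%. Median-ratio size factors and the other filters called 11.5% to 16.5% there. At 4 weeks the 0 became 1 with the block, the correlation, edgeR and DESeq2, and 4 with quality weights. At 8 weeks it became 1 with quality weights (SLC45A3), which called 0.649% of all genes. With 1 library left out the counts ran from 1 to 6 at 1 week and from 0 to 20 at 2 weeks, and were 0 at 4 and 8 weeks. The causes were not tested. Fits of 1 time point alone and fits with a library left out had fewer samples, and their counts moved both up and down.

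Differences between times gave 0 calls under every setting. The 15 calls of single members kept their direction under all settings. Pairing by rabbit and the rabbit correlation kept all 15, whereas all 34 libraries kept 2, sample quality weights 9 and a left-out library 56 of 136. Median-ratio scaling moved the median of all genes by at most 0.015, and changed the sign of 1 member at 4 and 1 at 8 weeks, both within 0.0121 of 0. With 3 to 5 rabbits a group, members under 1 CPM rest on few counts.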
